A study of Laetiporus sulphureus with 6 samples.

Results

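The 67 glycosyltransferase (GT) genes of *Laetiporus sulphureus* ATCC 52600, a brown-rot basidiomycete, were compared between mycelium of the pre-inoculum (T0) and mycelium kept on sugarcane bagasse (BIN). The members are all genes of the count table that the study's annotation of carbohydrate-active enzymes (CAZymes) places in a family whose name is GT and a number, a rule that uses no measured value. All 67 genes so annotated were among the 10015 genes of the table. They fell into 30 CAZy families, of which 18 held 1 gene and the largest, GT2, held 15. T0 mycelium was grown from 15 agar discs of 8 mm in 100 mL of liquid medium for 7 days at 30 °C and 180 rpm. BIN mycelium was grown in the same way, washed, and moved for 24 h to 100 mL of mineral salts medium with 1 g of in natura, that is untreated, bagasse. RNA of 3 biological replicates of each group was sequenced. All 6 cultures were of the same strain, and the comparison cannot tell bagasse apart from washing, the change of medium and the additional day, since no culture moved to medium without bagasse was analysed here. The gene annotation was taken as given, and the genes are named by the identifiers of the study's own assembly.

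Glycosyltransferases move a sugar from an activated donor, such as UDP-glucose, UDP-N-acetylglucosamine or dolichol-phosphate mannose, to a growing polymer, a protein, a lipid or another sugar. In fungi they make the chitin and the β-1,3-glucan of the cell wall, the reserves trehalose and glycogen, and the N-glycans, O-mannosyl chains and GPI anchors of secreted and wall proteins. CAZy families group the enzymes by sequence, so that a family such as GT2 or GT4 holds enzymes with different products, whereas GT48 has 1 known main activity in fungi. The members were therefore placed in 10 role groups by family and, within GT2 and GT4, by the Pfam domain and Gene Ontology term of the annotation. The roles given here are those of the family in other organisms and were not measured.

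Total counts were between 9541028 and 15331728 per library, and the GT genes took 0.812% to 0.943% of them in T0 and 1.266% to 1.297% in BIN. The lowest count of any member in any library was 19, so that no member lay near zero. Pearson correlations of log2 values between replicates were 0.980 to 0.992 in T0 and 0.993 to 0.995 in BIN. Levels of different genes are given as TPM (transcripts per 1000000), which is per length. Levels of 1 gene in T0 and BIN are given as counts per 1000000 scaled by the trimmed mean of M-values (TMM), written CPM below, since the median of all genes was 0.40 higher in BIN on the log2(TPM + 1) scale and differed by 0.00 on the TMM scale.

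Of the 67 GT genes, 13 were higher in BIN and 1 was lower by edgeR, where a call needed an adjusted p no higher than 0.05 together with a log2 fold change no smaller than 1 in either direction. These are 19.4% and 1.49% of the members, beside 11.3% and 14.5% of all genes tested. With the adjusted p alone, 37 members were past the threshold with a positive and 9 with a negative log2 fold change, beside 35.2% and 35.9% of all genes, and 21 members missed it. Every BIN library lay above every T0 library for 40 members and below for 11, beside 37.6% and 38% of all genes, and the groups overlapped for 16. The median log2 fold change of the members was 0.37, and that of all genes was 0.00. The members called higher were 3 chitin synthase genes, all 3 genes of GT20, the family of trehalose-6-phosphate synthase, and 2 GT8 genes. The others were 1 gene for sterol glucosylation, 1 further GT2 gene, and 1 gene each of GT28, GT41 and GT69. The member called lower was a GT65 gene.

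Gene length moved with these counts and has to be read beside them. The coding length, recovered as the ratio of counts to TPM, was 1860 bases in the median member and 1107 in the median gene, and 61 of the 67 members were longer than the median gene. Over all genes the log2 fold change rose with coding length, with a Spearman rho of 0.33 over the genes of the table, a description since genes are no replicates. When a smooth trend on length was taken out of each library, 6 members (8.96%) were called higher and 4 (5.97%) lower, beside 11.1% and 11.5% of all genes, and the median of the members was 0.17. What underlies this trend was not tested.

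**Figure D1:**
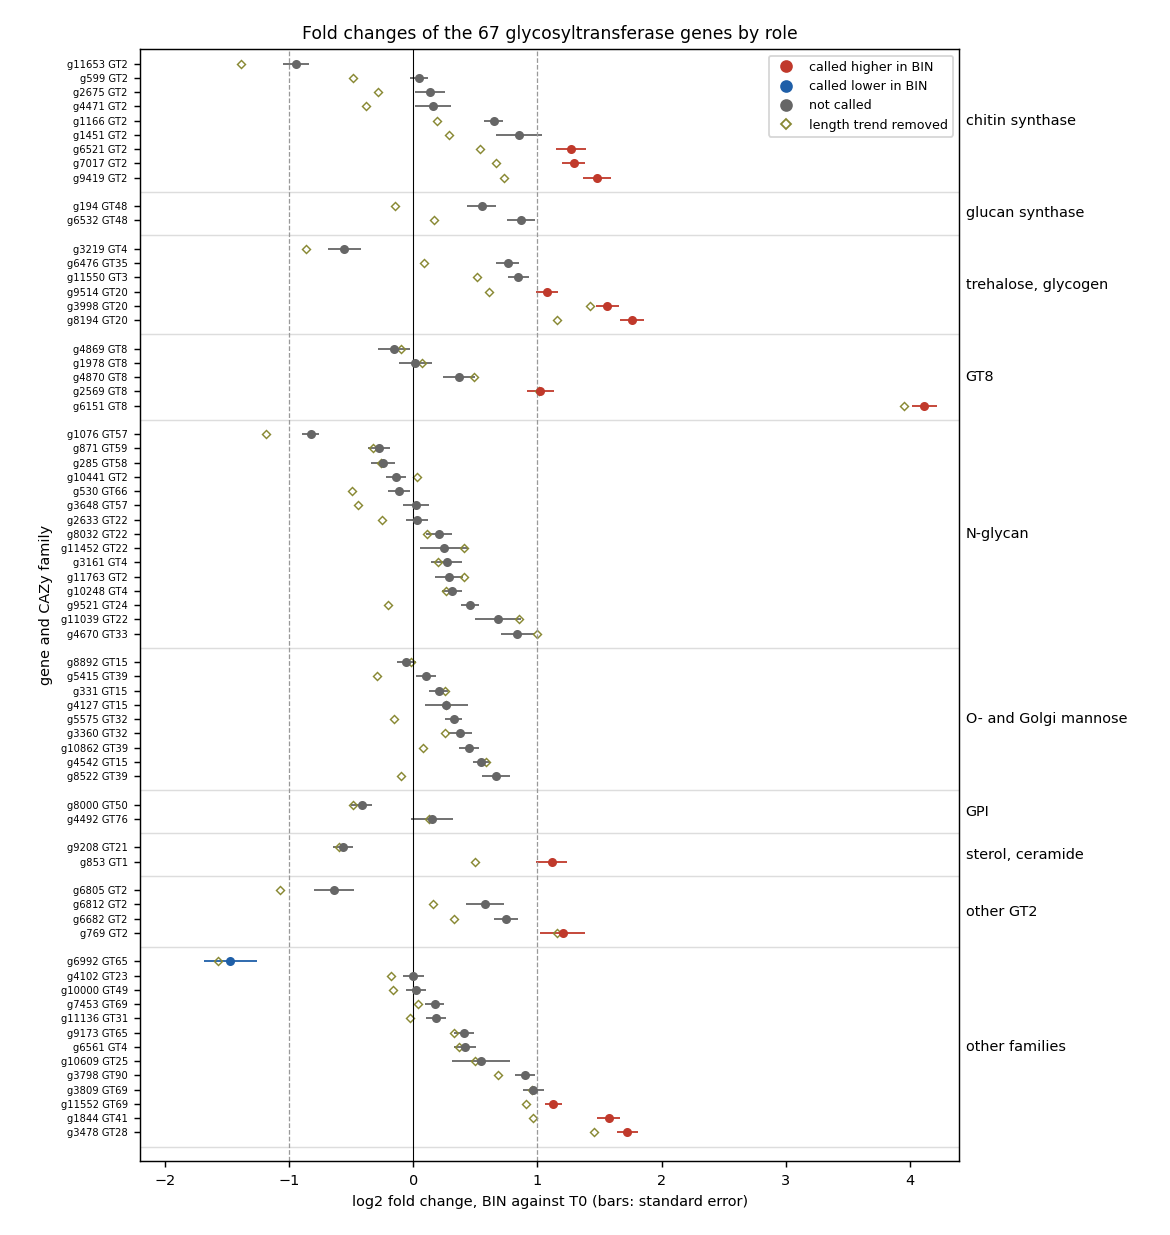
Log2 fold change of BIN against T0 for each of the 67 members, grouped by role, from edgeR with its standard error as a bar. Red circles are members called higher, blue lower and grey not called, open diamonds give the value with the length trend removed, and dashed lines mark log2 fold changes of 1 and -1. GT8 g6151 stands alone at 4.12, and the gap between circle and diamond reaches 0.76 for the longest member, GT39 g8522.

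The chitin synthase group had 9 GT2 genes, of which 3 rose, none was called lower and 6 were not called. Of all genes, 11.3% were called higher and 14.5% lower. Chitin synthases join N-acetylglucosamine units into chitin at the plasma membrane. In T0 the most abundant of them, and of all GT genes, was g11653 at 328 ± 44.8 TPM (SD, n = 3). In BIN it was at 230.0 ± 16.3 TPM and ranked 3 among the members. The genes that rose were g9419, g7017 and g6521, which were at 44.7 ± 8.08, 25.02 ± 4.49 and 33.5 ± 7.77 TPM in T0 and at 167 ± 9.47, 82.4 ± 2.68 and 108 ± 5.29 TPM in BIN (SD, n = 3).

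On the CPM scale, g9419 was at 320.2, 378 and 323 CPM in the T0 libraries and 996, 952 and 896 CPM in the BIN libraries. No T0 library reached a BIN library, and the BIN level was 2.79-fold that of T0 (log2 fold change 1.48, SE 0.11, adjusted p = 3.18e-06 in edgeR). For g7017 the values were 129, 154 and 134 CPM in the T0 libraries and 345, 343 and 331.1 CPM in the BIN libraries. Here too the groups were far apart, with a 2.45-fold higher level in BIN (log2 fold change 1.29, SE 0.09, adjusted p = 2.29e-06 in edgeR). The third gene, g6521, had 220.2, 292 and 241 CPM in the T0 libraries and 627, 612 and 577 CPM in the BIN libraries, again without overlap and 2.41-fold higher in BIN (log2 fold change 1.27, SE 0.12, adjusted p = 1.41e-05 in edgeR).

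The gene g11653 had a change of the opposite sign, with 1074, 1204 and 1155 CPM in the T0 libraries and 567, 632 and 586 CPM in the BIN libraries. All T0 libraries lay well above all BIN libraries, and T0 was 1.92-fold higher, which passed the adjusted p but stayed just short of the fold threshold (log2 fold change -0.94, SE 0.11, adjusted p = 4.41e-05 in edgeR). The make-up of the chitin synthase transcripts differed between the groups. The share of g11653 in the summed TPM of the 9 genes was 58.2% ± 1.32 in T0 and 28.2% ± 1.21 in BIN (SD, n = 3). The shares of g9419, g6521 and g7017 together were 18.2% ± 0.733 in T0 and 43.98% ± 1.58 in BIN, and for both measures no T0 library reached the range of the BIN libraries. The 9 genes together held 18.7% ± 1.09 of the summed TPM of the GT genes in T0 and 16.3% ± 0.347 in BIN. Their sum was 565 ± 88.7 TPM in T0 and 814 ± 27.2 TPM in BIN. The all-gene median of TPM was also higher in BIN, 1.37-fold that in T0. The summed CPM of the 9 genes in BIN was 1.31-fold that in T0. Long genes weigh more in this sum, and no sum was made with the length trend removed.

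**Figure D2:**
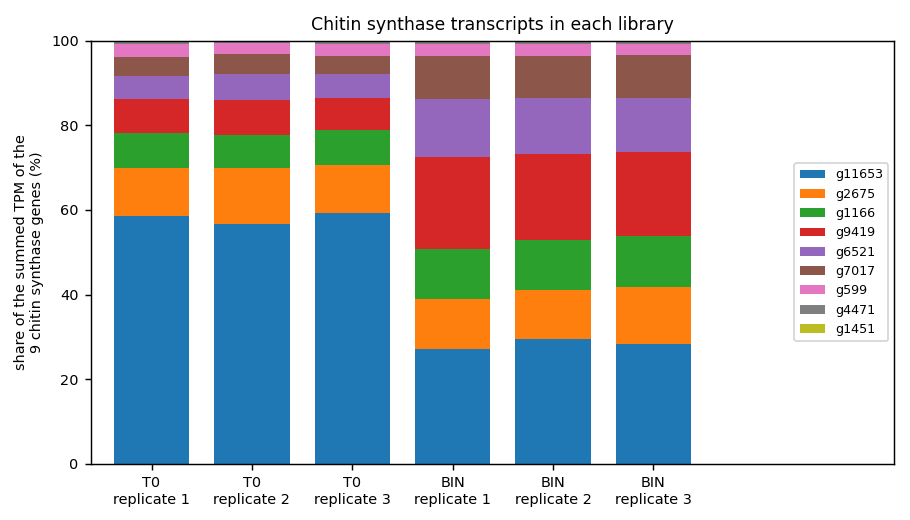
Share of each of the 9 chitin synthase genes in their summed TPM (y axis, percent, from 0 to 100) in each of the 6 libraries (x axis), stacked in the order of their T0 mean. The lowest block, g11653, takes 56.7% to 59.3% in the T0 libraries and 27.0% to 29.4% in the BIN libraries.

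The coding lengths of g9419, g6521 and g7017 were 5931, 5856 and 4317 bases, the longest of the group, and that of g11653 was 2709. With the length trend removed, the log2 fold changes of g9419, g7017 and g6521 were 0.73, 0.67 and 0.53, none of which was called, and that of g11653 was -1.39, which was called lower. The difference between g9419 and g11653 in log2 fold change was 2.42 before and 2.12 after this step. The annotation places g9419, g7017 and g6521 among the chitin synthases by their Gene Ontology term, with general GT2 Pfam domains, whereas the other 6 genes carry chitin synthase Pfam domains. Among these, g1451 has the Gene Ontology term of a hyaluronan synthase, so that its place in the group is uncertain.

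Of the remaining 5 chitin synthase genes, g1166 had 159, 172 and 165 CPM in the T0 libraries and 257, 262 and 258 CPM in the BIN libraries. Its groups did not overlap, and it passed the adjusted p without reaching the fold threshold (log2 fold change 0.65, SE 0.08, adjusted p = 5.42e-05 in edgeR). The least abundant GT gene in both groups, g1451, was at 0.566 ± 0.131 TPM in T0 and 1.40 ± 0.134 TPM in BIN (SD, n = 3), with a log2 fold change of 0.85 that was not called. The values of g1166 and g1451 were 0.19 and 0.29 with the length trend removed. The genes g2675, g4471 and g599 had log2 fold changes of 0.14, 0.16 and 0.04, their groups overlapped, and all of these values turned negative with the length trend removed.

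GT48 enzymes make β-1,3-glucan, the main glucan of the fungal wall. Neither of the 2 GT48 genes was called, although both had higher levels in every BIN library. The gene g6532 was at 259.6, 330.1 and 284 CPM in the T0 libraries and 543, 547 and 506 CPM in the BIN libraries, and its log2 fold change was 0.87 with an SE of 0.11. For g194 the values were 313, 405 and 330.6 CPM in the T0 libraries and 529.6, 515 and 489 CPM in the BIN libraries, and the log2 fold change was 0.55 with an SE of 0.12. Both passed the adjusted p in edgeR, at 9.79e-05 and 0.00221. They have coding lengths of 5307 and 5268 bases, and with the length trend removed their log2 fold changes were 0.17 and -0.15, and neither passed the adjusted p.

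The trehalose and glycogen group held 6 genes, of which 3 rose and none was called lower, beside 11.3% and 14.5% of all genes. Trehalose is the disaccharide that fungi store and use as a protectant against stress, and glycogen is their glucose polymer. GT20 holds the enzyme that joins glucose to glucose-6-phosphate to give trehalose-6-phosphate, and all 3 GT20 genes rose. Their Gene Ontology term is that of the synthase complex, so that the annotation does not show which of them is the synthase. The gene g8194 had 44.1, 55.1 and 49.95 CPM in the T0 libraries and 169.9, 176 and 160.3 CPM in the BIN libraries. The BIN libraries lay far above those of T0, with a 3.39-fold difference (log2 fold change 1.76, SE 0.09, adjusted p = 3.87e-07 in edgeR). The most abundant GT20 gene in both groups, g3998, had 101, 88.9 and 100.1 CPM in the T0 libraries and 301, 294 and 264 CPM in the BIN libraries. It was 2.96-fold higher in BIN with no overlap (log2 fold change 1.56, SE 0.09, adjusted p = 6.56e-07 in edgeR). The third, g9514, had 148, 167 and 142 CPM in the T0 libraries and 326, 324 and 314 CPM in the BIN libraries, which is 2.11-fold higher (log2 fold change 1.08, SE 0.09, adjusted p = 5.85e-06 in edgeR).

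The calls of g8194 and g3998 held under all 18 alternative settings, and their log2 fold changes were 1.16 and 1.42 with the length trend removed. The value of g9514 was 0.61 with that step and was no longer called. In T0 the levels of g3998 and g9514 were 44.9 ± 0.447 and 41.3 ± 6.97 TPM (SD, n = 3), a difference within the larger SD, and in BIN they were 180.0 ± 13.7 and 117 ± 3.45 TPM, a difference beyond it.

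The other genes of the group were not called. GT3 holds glycogen synthase, and g11550 was at 207, 223 and 212 CPM in the T0 libraries and 398, 393 and 365 CPM in the BIN libraries. GT35 holds glycogen phosphorylase, which releases glucose-1-phosphate from glycogen, and g6476 was at 463, 434 and 453 CPM in the T0 libraries and 736, 755 and 796 CPM in the BIN libraries. Both passed the adjusted p with no overlap, at log2 fold changes of 0.85 and 0.76 (SE 0.09 and 0.10). They were 0.51 and 0.09 with the length trend removed. The GT4 gene g3219 is annotated as a trehalose phosphorylase, which cleaves trehalose with phosphate, and it had 384, 533 and 426 CPM in the T0 libraries and 282, 312 and 320.4 CPM in the BIN libraries. Its BIN libraries lay below all T0 libraries, with a log2 fold change of -0.56 (SE 0.13, adjusted p = 0.00393 in edgeR). With the length trend removed this value was -0.86, which was not called either. The gene g3219 took 39.96% ± 3.88 of the summed TPM of the 6 genes in T0 and 17.9% ± 1.29 in BIN. The 6 genes together held 13.5% ± 0.748 of the summed TPM of all GT genes in T0 and 16.8% ± 0.317 in BIN (SD, n = 3).

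GT8 is a family of retaining enzymes that includes glycogenin, the self-glucosylating primer of glycogen, and galactosyltransferases that make galactinol in plants. Its 5 members here all carry the Pfam domain PF01501, and the annotation does not tell their substrates apart. 2 of the 5 rose, beside 11.3% of all genes, and the other 3 were not called. The gene g6151 had the largest change of the 67 members, with 6.38, 5.85 and 7.41 CPM in the T0 libraries and 115, 113 and 114 CPM in the BIN libraries. T0 levels were low and BIN levels were nearly the same in the 3 cultures, and the difference was 17.4-fold (log2 fold change 4.12, SE 0.10, adjusted p = 1.09e-08 in edgeR). In TPM it went from rank 63 of the 67 members in T0, at 2.92 ± 0.264 TPM, to rank 26 in BIN, at 69.1 ± 0.419 TPM (SD, n = 3). Its log2 fold change was 3.95 with the length trend removed, between 4.02 and 4.23 when each library was left out in turn, and called under all 18 settings.

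The second GT8 gene that rose was g2569, at 19.7, 22.6 and 22.03 CPM in the T0 libraries and 45.5, 47.2 and 38.4 CPM in the BIN libraries. The groups did not overlap, and the level in BIN was 2.03-fold that in T0 (log2 fold change 1.02, SE 0.11, adjusted p = 2.73e-05 in edgeR). This value lies at the threshold, and the call was lost when T0 replicate 1, when BIN replicate 1 and when BIN replicate 2 was left out, where the lowest value was 0.96. The most abundant GT8 gene in T0, g4870, had 38.04, 27.9 and 37.3 CPM in the T0 libraries and 49.6, 41.3 and 42.00 CPM in the BIN libraries and a log2 fold change of 0.37. The genes g1978 and g4869 had log2 fold changes of 0.02 and -0.15, the second positive on the log2 TPM scales, and neither passed the adjusted p. The share of g6151 in the summed TPM of the 5 genes was 5.09% ± 0.369 in T0 and 40.4% ± 1.52 in BIN (SD, n = 3), and that of g4870 was 47.1% ± 3.58 in T0 and 27.6% ± 1.90 in BIN.

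**Figure D3:**
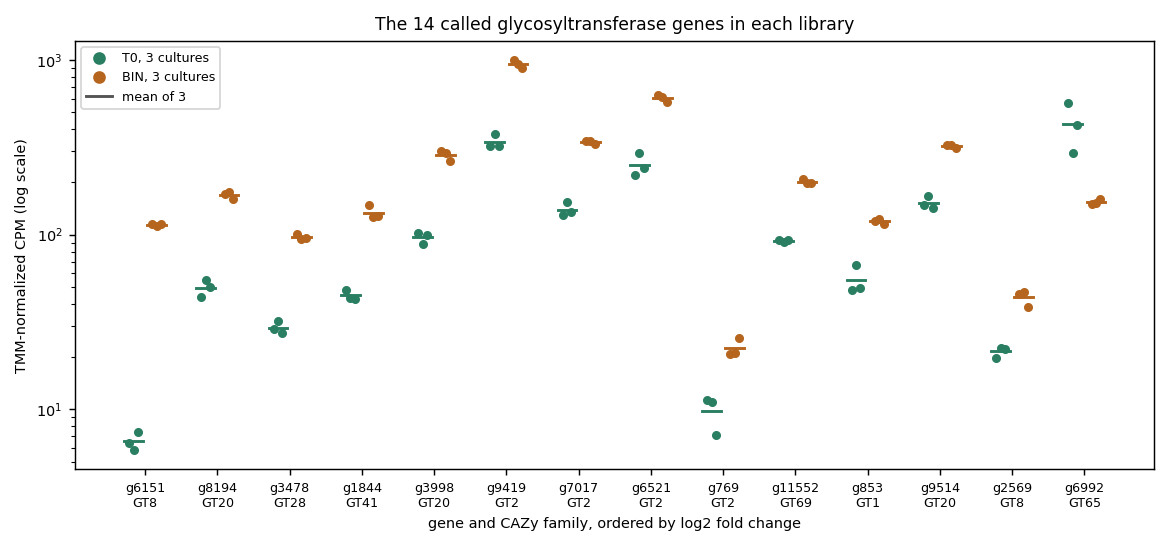
Level of each of the 14 called GT genes in the 6 libraries, as TMM-normalized CPM on a log axis, with 3 T0 points and 3 BIN points per gene and a bar at their mean. The genes are ordered by log2 fold change from g6151 on the left to g6992, the 1 gene called lower, on the right, and no gene has overlapping groups.

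None of the 15 genes for N-glycan assembly, transfer and folding control was called. This pathway builds an oligosaccharide on dolichol in the endoplasmic reticulum, moves it to asparagine residues of new proteins, and re-glucosylates misfolded ones. The 4 GT22 genes of the group were placed by family alone. Not all of them carry a Gene Ontology term of this pathway, so that their place is uncertain. Log2 fold changes ran from -0.83 for g1076, of GT57, to 0.84 for g4670, of GT33, with a median of 0.21. 5 genes passed the adjusted p with a positive and 3 with a negative value, beside 35.2% and 35.9% of all genes. The other 7 did not pass it. The most abundant of the 15 was g530 of GT66, the catalytic subunit of the oligosaccharyltransferase. It was at 412, 401 and 419.9 CPM in the T0 libraries and 385, 355 and 398 CPM in the BIN libraries. Its BIN libraries lay just below those of T0, the log2 fold change of -0.12 did not pass the test (SE 0.09, adjusted p = 0.277 in edgeR), and it was 0.025 with library size alone. Removing the length trend gave -0.49, which passed the adjusted p, at 0.00147 in edgeR, but not the fold threshold. The 15 genes held 18.9% ± 0.322 of the summed TPM of the GT genes in T0 and 15.5% ± 0.406 in BIN (SD, n = 3). Their summed CPM in BIN was 1.02-fold that in T0. With the length trend removed the median was 0.028, g1076 was called lower, at -1.19, and no gene of this group was called higher.

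The 9 genes for O-mannosylation and Golgi mannosylation, which build mannose chains on secreted and wall proteins, had no call either. Their log2 fold changes ran from -0.06 to 0.66 with a median of 0.32. Of the 9 genes, 6 passed the adjusted p, all with positive values. Of all genes, 35.2% passed it with a positive and 35.9% with a negative value. With the length trend removed the values ran from -0.29 to 0.58 with a median of 0.079, and 2 of these 6 genes turned negative, g8522 of GT39 from 0.66 to -0.10 and g5575 of GT32 from 0.32 to -0.16. The most abundant was g3360 of GT32, the family of the yeast Golgi mannosyltransferase Och1, at 356, 386 and 329.6 CPM in the T0 libraries and 443, 467 and 481 CPM in the BIN libraries. All BIN libraries were above all T0 libraries, with a log2 fold change of 0.38 (SE 0.10). At 302 ± 13.5 TPM in BIN it ranked 2 among the members.

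GPI anchors hold proteins to the outer face of the membrane, and GT50 and GT76 add mannose to them. Of these 2 genes the more abundant, g8000 of GT50, had 50.6, 59.7 and 59.6 CPM in the T0 libraries and 42.2, 42.5 and 42.9 CPM in the BIN libraries. It was lower in every BIN library, with a log2 fold change of -0.42 (SE 0.09) that was not called and that was 0.028 and 0.029 on the log2 TPM scales. Both genes of lipid glycosylation passed the adjusted p, in opposite directions. The GT1 gene g853 is annotated as a sterol 3-β-glucosyltransferase, and it had 48.2, 66.96 and 49.3 CPM in the T0 libraries and 119, 123 and 114 CPM in the BIN libraries. It was 2.17-fold higher in BIN without overlap (log2 fold change 1.11, SE 0.12, adjusted p = 4.37e-05 in edgeR), and at 4317 bases it is a long gene whose log2 fold change was 0.50 with the length trend removed. GT21 holds ceramide glucosyltransferase, and g9208 had 56.1, 51.95 and 53.8 CPM in the T0 libraries and 36.3, 34.1 and 38.7 CPM in the BIN libraries. It was lower in every BIN library with a log2 fold change of -0.57 (SE 0.08), short of the fold threshold.

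4 GT2 genes were placed neither with chitin nor with N-glycans, and their products are not known from the annotation. The gene g6682 was the most abundant GT gene in BIN, at 393 ± 16.2 TPM, and ranked 3 in T0, at 174 ± 19.8 TPM (SD, n = 3). On the CPM scale it was at 565, 595 and 564 CPM in the T0 libraries and 925, 961 and 1003 CPM in the BIN libraries. The groups were well apart, and the log2 fold change of 0.75 (SE 0.10, adjusted p = 1.21e-04 in edgeR) was below the fold threshold. It was 0.32 with the length trend removed. The gene g769 was low, at 11.3, 11.1 and 7.14 CPM in the T0 libraries and 20.6, 20.9 and 25.7 CPM in the BIN libraries, and rose by 2.30-fold (log2 fold change 1.20, SE 0.18, adjusted p = 2.86e-04 in edgeR). It kept 1.16 with the length trend removed. The remaining genes, g6812 and g6805, had log2 fold changes of 0.58 and -0.64 and were not called.

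Of the 13 genes of other families, 3 rose and 1 fell, beside 11.3% and 14.5% of all genes. GT28 includes galactolipid synthases of plants and a peptidoglycan enzyme of bacteria, and its only member here, g3478, had 28.7, 32.00 and 27.2 CPM in the T0 libraries and 101, 94.4 and 95.1 CPM in the BIN libraries. It was 3.30-fold higher in BIN (log2 fold change 1.72, SE 0.09, adjusted p = 2.43e-07 in edgeR), was at 1.46 with the length trend removed, and was called under all 18 settings. GT41 is the family of the animal O-GlcNAc transferase, and g1844 had 47.9, 43.6 and 43.02 CPM in the T0 libraries and 147, 125 and 127 CPM in the BIN libraries. This was a 2.98-fold rise (log2 fold change 1.57, SE 0.09, adjusted p = 6.05e-07 in edgeR), which came to 0.96, just under the threshold, with the length trend removed. GT69 includes an α-1,3-mannosyltransferase of *Cryptococcus*, and 3 members were tested. Of these g11552 rose, with 92.9, 90.3 and 92.8 CPM in the T0 libraries and 208, 197 and 198 CPM in the BIN libraries and a fold of 2.18 (log2 fold change 1.13, SE 0.07, adjusted p = 9.06e-07 in edgeR).

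The member that fell was g6992 of GT65, the family of the animal protein O-fucosyltransferase. Its levels were 569.7, 295 and 422 CPM in the T0 libraries and 149, 152 and 161 CPM in the BIN libraries. T0 levels differed widely among cultures, yet the lowest was well above all of the BIN values, and T0 was 2.78-fold higher (log2 fold change -1.48, SE 0.21, adjusted p = 3.88e-04 in edgeR). The log2 fold change stayed between -1.69 and -1.23 when single libraries were left out, and the call was lost only with limma on both log2 TPM scales. In TPM it ranked 2 of the members in T0, at 213 ± 54.3, and 17 in BIN, at 105 ± 3.92 (SD, n = 3). The other GT65 gene, g9173, had a log2 fold change of 0.41.

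Apart from g11653, the members closest to the fold threshold without passing it were g3809 of GT69, at 0.97 (SE 0.08), and g3798 of GT90, at 0.90 (SE 0.08). The gene g3809 was at 60.02, 56.8 and 57.2 CPM in the T0 libraries and 124, 111 and 105 CPM in the BIN libraries. For g3798 the values were 101, 116 and 105 CPM in the T0 libraries and 207, 194.1 and 199 CPM in the BIN libraries. Neither had overlapping groups, and both were called with library size alone. Just inside the threshold lay g2569 at 1.02 and g9514 at 1.08.

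The levels of the members spanned a wide range in both groups. The median member was at 28.2 TPM in T0 and 49.96 TPM in BIN, beside 23.2 and 31.9 TPM for the median gene, and 40 and 42 of the 67 members lay above the median gene. In T0 8 members had a mean of at least 100 TPM and in BIN 21 had. This mark is fixed, whereas the TPM of the median gene was higher in BIN. The 5 most abundant were g11653, g6992, g6682, g3360 and g3219 in T0 and g6682, g3360, g11653, g11550 and g3998 in BIN, with 3 genes in common. In T0 g11653 stood above the others, whereas g6682, g3360 and g3219 differed by less than their SD. In BIN g6682 and g3360 were apart from each other and from g11653 by more than their SD, and g11550 and g3998 differed from each other by less than theirs.

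**Figure D4:**
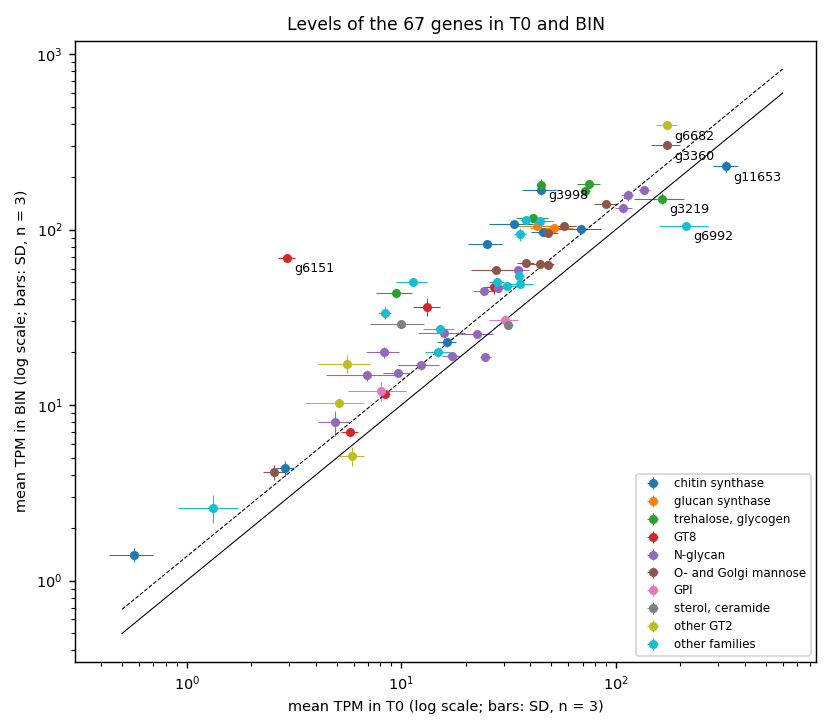
Mean TPM of each of the 67 members in T0 (x axis) and in BIN (y axis), both on log scales, coloured by role group, with SD bars over 3 cultures. The solid line marks equal TPM and the dashed line the ratio of the all-gene medians, 1.37. The labelled gene g6151 lies far above both lines. The labelled genes g11653, g6992 and g3219 lie below both, as do g1076, g9208 and g6805, which carry no label.

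All 13 members called higher were longer than the median gene. When all genes were divided into 4 classes of equal size by coding length, 37 members lay in the longest class, of at least 1707 bases, 24 in the next, 6 in the one after that and 0 in the shortest. In the longest class 10 members were called higher and 0 lower, beside 16.6% and 5.48% of all genes of that class, and the median log2 fold change was 0.58 for the members and 0.40 for all genes. In the next class, of 1110 to 1704 bases, 3 members were called higher and 1 lower, beside 12.3% and 12% of all genes, and the medians were 0.24 and 0.03. With the trend removed, the median of the members was 0.08 in the longest class and 0.23 in the next. In the class of 663 to 1107 bases, with 6 members, it was 0.33 before and 0.45 after this step. The Spearman rho between coding length and log2 fold change over the 67 members was 0.30 before and -0.15 after this step, as a description.

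The genes called higher both with and without the length trend were g6151, g8194, g3998, g3478, g769 and g2569. Those called higher only without its removal were g9419, g7017, g6521, g9514, g853, g1844 and g11552, and those called lower only with its removal were g11653, g1076 and g6805. The gene g6992 was called lower in both fits. In the fit with the trend removed, 28 members passed the adjusted p with a positive and 16 with a negative log2 fold change, beside 33.3% and 34.9% of all genes.

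**Figure D5:**
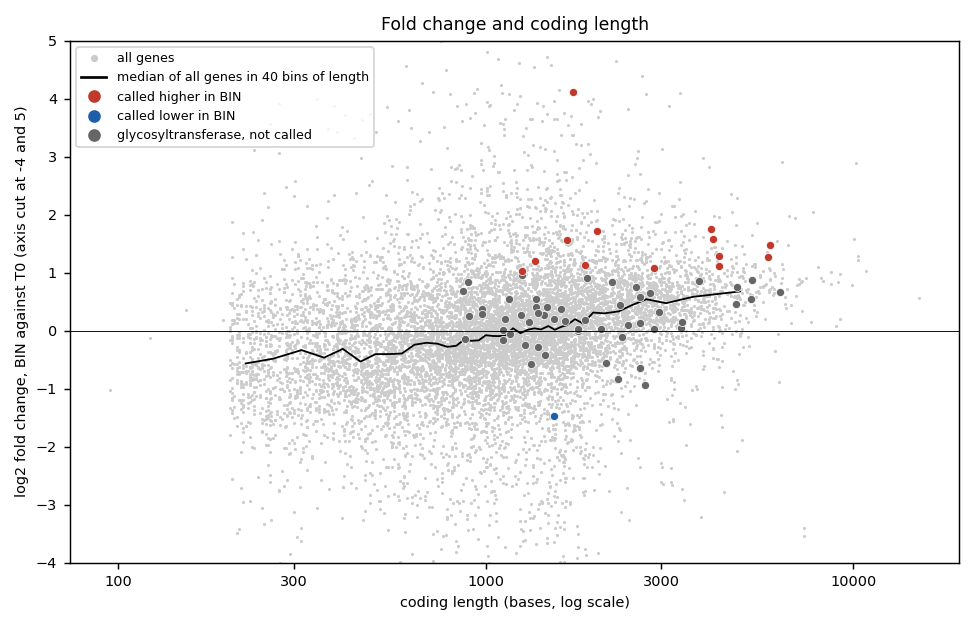
Log2 fold change of BIN against T0 (y axis) against coding length in bases (x axis, log scale) for all 10015 genes (light grey) and the 67 members (larger points, red called higher, blue called lower, dark grey not called). The black line is the median of all genes in 40 bins of length and rises from left to right, and g6151 lies far above it.

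The enzymes that cut or modify the same polymers were read from the same fit as a pathway context. Of 38 such genes of the annotation 37 were in the table, and 13 of them were higher and 10 lower in BIN, beside 11.3% and 14.5% of all genes. Among the 15 genes of chitin turnover, that is chitinases of GH18, hexosaminidases of GH20 and CE4 esterases, 5 were higher and 4 lower. Among the higher genes, g5832 of CE4 has the Gene Ontology term of an acetylxylan esterase, and without it 4 of 14 genes were higher and 4 lower. The CE4 family includes chitin deacetylases, and its gene g3716 was at 1.05 ± 0.0456 TPM in T0 and 6415 ± 511 TPM in BIN (SD, n = 3). The GH18 gene g5150 was at 1152 ± 58.5 and 556 ± 37.6 TPM, with a log2 fold change of -1.49 (SE 0.12).

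Among the 11 genes listed for glycogen and trehalose, which are 9 of GH13 and GH15 and 2 of GH37, 6 were higher and 3 lower. GH13 and GH15 also hold amylases and glucoamylases that act on starch. The list was made by family alone and does not separate starch or other glucans from glycogen. Its 5 genes of GH13_1 and GH15 had 3 higher and 2 lower calls. The GH13_8 gene g3719, of the family of the glycogen branching enzyme, had a log2 fold change of 1.72 (SE 0.11). Both genes of GH37, the trehalases, were called, in opposite directions, with 1.59 for g11208 (SE 0.07) and -1.60 for g10264 (SE 0.12). In TPM, g11208 was at 18.5 ± 2.34 in T0 and 75.03 ± 1.66 in BIN, and g10264 was at 135 ± 32.2 and 59.9 ± 2.26, so that the more abundant trehalase gene was g10264 in T0 and g11208 in BIN. Of the 11 genes of N-glycan trimming and release, 2 were higher and 3 lower, and none of the 15 N-glycan GT genes was called. The shares of all genes were 11.3% higher and 14.5% lower. These 11 genes had 0 higher and 4 lower calls with the length trend removed, and the 15 GT genes had 0 and 1, beside 11.1% and 11.5% of all genes. With the length trend removed the 37 genes had 9 higher and 12 lower calls.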

How the data were processed

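The authors trimmed the reads with Trimmomatic 0.32, removed rRNA with SortMeRNA, mapped with TopHat2 to their own assembly of the strain, and deposited the whole-number counts of each predicted gene. They also deposited TPM values, which were recomputed here as the same counts divided by a fixed length per gene and scaled to 1000000 per library. That length was a multiple of 3 in all 67 members, and is called coding length. The program that counted reads is not given in the sources used here, so members with near-identical copies are uncertain. All 10015 genes of the table had at least 1 count per 1000000 in every library, so genes silent in a condition are not among them.

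BIN was compared with T0 on the counts by edgeR 4.0.16 (TMM, filterByExpr, which removed no gene, glmQLFit with robust estimation and glmQLFTest) in R 4.3.3, with 3 libraries per group and no replicate block, and p adjusted by the Benjamini-Hochberg method over all 10015 genes. The SE is the log2 fold change divided by the square root of F. With 3 against 3 libraries a permutation test cannot go below a p of 0.1. The length trend was a lowess curve (span 0.3) per library on log2 coding length, removed through offsets. The fit was also run on simulated counts, which held no trend on length. The alternatives were DESeq2 1.42.0, glmTreat, RLE factors, library size alone, unadjusted p, the block, leaving out the filter or filtering on a mean of 1 TPM, limma 3.58.1 on log2(TPM + 1) and log2(TPM + 0.1), and each library left out.

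Members named with values were those called, all of the chitin synthase, GT48, trehalose and glycogen, and GT8 groups, the most abundant of every other group, and those within 0.1 of the fold threshold. Of the rest, g1076, g4670, g5575, g6805, g6812, g8522 and g9173 are named for being an end of a range, a changed call or sign, or a single remaining gene, and the enzymes of the same polymers named were chosen after their values were seen. Members, groups and lists were chosen with earlier results of these data known. No gene identifier matched the 13840 genes of the RefSeq list of another strain, and no sequences are shown.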

Additional observations from a re-analysis of the deposited data

How the results depend on the processing

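The 13 higher calls and the 1 lower call were the same genes with DESeq2, RLE factors, no filter, the TPM filter and unadjusted p. Library size alone gave 16 higher, adding g3798, g3809 and g6532, beside 14.4% of all genes. It moved the median of all genes by 0.13. Higher calls were 8 with glmTreat (without g11552, g2569, g769, g853 and g9514), 6 with the length trend removed, 23 with limma on log2(TPM + 1) and 25 on log2(TPM + 0.1), beside 7.36%, 11.1%, 21.3% and 24.1% of all genes. Lower calls were 4 with the length trend removed and 0 on both log2 TPM scales, beside 11.5%, 7.45% and 7.82% of all genes, where the median of all genes lay at 0.40 and 0.43. Leaving out single libraries gave 12 to 14 higher calls, beside 10.9% to 12% of all genes. It gave 1 lower call each time, beside 14.1% to 15.5% of all genes. The median of the members less that of all genes stayed between 0.18 and 0.41. The replicate block gave 13 and 1 calls, beside 11.4% and 14.4% of all genes. With the length trend removed as well it gave 6 and 4, beside 11.2% and 11.4%. The labels do not say whether cultures of the same number were paired. Deviations of same-numbered cultures correlated at 0.04, 0.01 and -0.10, which cannot show how the cultures were set up. With the length trend removed 13 of the 67 members turned negative and 1 positive. Among the 35 members that the rule names, signs turned for g194 (-0.15 with the length trend removed, -0.15 with the block too), g599 (-0.49, -0.49), g2675 (-0.29, -0.29) and g4471 (-0.38, -0.37). They turned on both log2 TPM scales for g530 (0.32, 0.32), g4869 (0.24, 0.27) and g8000 (0.028, 0.029), for g530 with library size alone (0.025), and for g1978 (-0.11 to 0.079 with 1 library left out). By group, chitin synthases had 0 higher calls with the length trend removed and GT8 had 1 with glmTreat. The cause of these changes was not tested.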
